A study of Mus musculus with 6 samples.

Results

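The 49 genes described here encode proteins that process ribosomal RNA (rRNA) in the nucleolus. They were chosen by name from the deposited tables, with the difference between cadmium and control libraries already known, and all 49 of 49 names were found among 25241 genes. Their fold changes and the counts of calls among them are therefore a description of these libraries and support nothing further. Transcripts were measured by RNA sequencing in wild type mouse neural stem cells, isolated from the subgranular zone of the hippocampus and grown as primary cultures to passage 3. The control group was 3 untreated cultures and the cadmium group was 3 cultures given 0.8 μM cadmium chloride for 72 h. The labels call the replicates biological without giving their animals of origin. All errors and p-values therefore measure only the spread between these cultures, which may be technical.

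Ribosome production starts in the nucleolus, where RNA polymerase I transcribes a long precursor RNA. The small subunit processome, a very large particle built around the U3 small nucleolar RNA, assembles on the front part of this precursor, folds it and guides its cleavage into the small subunit rRNA. A separate set of factors matures the large subunit rRNAs. Small nucleolar ribonucleoproteins (snoRNPs) modify bases and riboses along the precursor, box C/D particles by ribose methylation and box H/ACA particles by pseudouridine formation. Growing and dividing cells, neural stem cells among them, make ribosomes at a high rate.

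The libraries held 37710042 to 41523231 counts, and the group totals did not separate (two-sided exact permutation p = 0.3, n = 3, where 3 against 3 allows no p below 0.1). The 10 listed markers of neural stem cells were all detected, with control means from 1.98 FPKM for Prom1 to 2019 FPKM for Fabp7, where FPKM are reads scaled to gene length and library total. They moved both ways with treatment, 4 higher, such as Nes (log2 fold change 0.78), and 6 lower, such as Hes5 (-1.20) and Sox2 (-0.27). Of 8 microglial markers, Cx3cr1, Aif1 and C1qb were not analysed here, the others were at or near 0 and only P2ry12 passed the filter on low counts (0.148 FPKM in control). Of 6 endothelial markers only Kdr passed it (0.307 FPKM). Astrocyte markers were present and moved with treatment. All 10 listed were lower in cadmium cultures. Their summed level was 5081, 5032 and 6271 CPM (TMM-scaled counts relative to library size) in control replicates 1 to 3. In the cadmium replicates it was 2640, 2470.3 and 2648 CPM. Oligodendrocyte lineage markers passed the filter in 8 of 10 cases, with control means up to 889 FPKM, and 2 rose and 5 fell. Their median log2 fold change was -0.61. Neuron markers passed it in 7 of 8 cases (up to 27.8 FPKM), and 0 rose and 1 fell. Mural and fibroblast markers passed it in 5 of 7 (up to 1.07 FPKM), and 0 rose and 3 fell. Among all genes tested 23.1% rose and 22.4% fell. Of 8 proliferation markers, 4 rose, among them Mcm2 and Pcna, while Mki67 averaged 489 CPM in control and 501 CPM in cadmium libraries. In such bulk samples a change in the share of a cell type and a change in RNA per cell cannot be told apart, and the part of either in the results below was not tested. Control replicate 3 stood apart from the other controls, with a score of -36.9 on the first principal component against -23.4 and -22.4.

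All 49 factors had a higher fitted level in cadmium cultures. The median log2 fold change was 0.45, or 1.37-fold, beside -0.01 over the 14369 genes tested. Values ran from 0.10 for Gnl3l to 0.98 for Rrp12, so no factor reached 2-fold and 14 reached 1.5-fold. In the fit over all genes (edgeR quasi-likelihood test, Benjamini-Hochberg adjusted p below 0.05) 47 of the 49 passed with a higher level and 0 with a lower one, where 23.1% of all genes tested rose and 22.4% fell. No list p is given and nothing is read from that count, because the genes were picked with this comparison in view. The 3 cadmium libraries lay above all 3 control libraries for 46 of the 49 factors, and below them for 0, where 28.0% and 28.3% of all genes tested did so. All 49 passed the filter on low counts, the lowest single count being 367 for Rrp12.

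The share of all counts that fell on the 49 genes was 0.275%, 0.279% and 0.248% in control replicates 1, 2 and 3. In the cadmium replicates it was 0.344%, 0.371% and 0.356%, and the groups did not overlap. Control replicate 3 was the lowest control library for 37 of the 49 genes, and cadmium replicate 2 the highest cadmium library for 41 of them. The difference did not rest on either library alone. Without control replicate 3 the median was 0.43 and 45 genes passed, where 21.8% of all genes tested rose. Without cadmium replicate 2 it was 0.42 and 41 passed, where 19.1% of all genes tested rose.

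**Figure D1:**
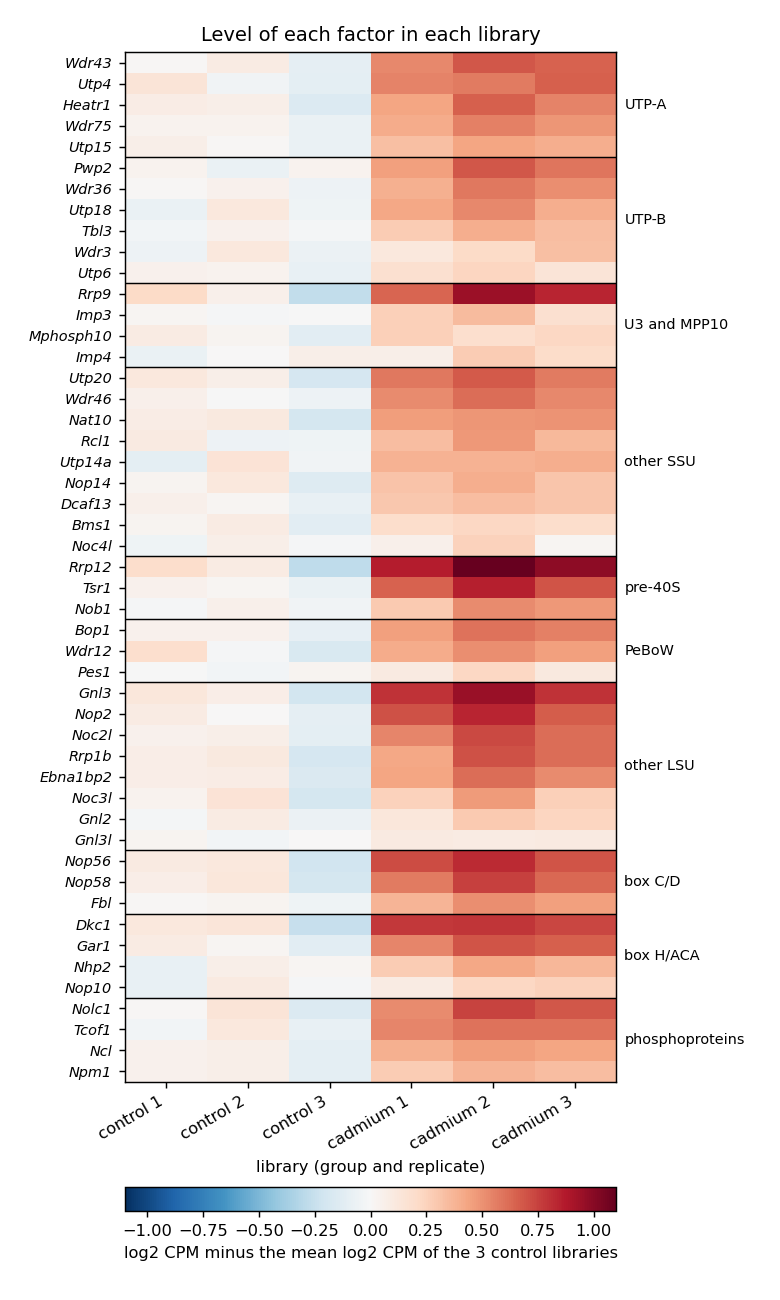
Level of each of the 49 factors (rows, grouped by complex) in each of the 6 libraries (columns), as log2 CPM minus the mean log2 CPM of the 3 control libraries. Red cells fill the cadmium columns in nearly every row, deepest in cadmium replicate 2 for 41 of the 49. Control replicate 3 is the lowest control column for 37 of the 49 genes.

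Of the 49 genes, 38 have a promoter window in the RefSeq table of the mouse build GRCm38.p6, which runs from 250 bases before to 50 bases after the annotated start. The counts were made on another build, GRCm39, so the windows serve for sequence only. The letters CACGTG, the E-box form to which MYC and MAX dimers are known to bind, are the same on both strands and were found in the windows of 9 of the 38 genes (23.7%), beside 11.5% of the 11360 genes tested that have a window. The core of ETS factor sites, CCGGAAG, was found on either strand in 16 of 38 (42.1%) beside 18.8%, and GGGCGG in 26 of 38 (68.4%) beside 68.4%. No CACGTG overlapped the other motifs searched. The genes with CACGTG were 7 of 22 small subunit factors, 2 of 8 large subunit factors and 0 of 6 snoRNP proteins with a window. Their median log2 fold change was 0.59, and that of the genes with a window but without it was 0.45. The values of the 9 genes ran from 0.15 for Pes1 and 0.18 for Imp4 to 0.73 for Nop2. The difference of medians was not tested. A match is only a run of letters and does not show that a factor binds there.
The 4 genes of these 9 with the highest fold changes are shown, 5′ to 3′ along the gene, with CACGTG in capitals: the rRNA methyltransferase gene Nop2 (chr6:125131633-125131932, plus strand), the late small subunit gene Tsr1 (chr11:74897830-74898129, plus strand), the UTP-A gene Wdr43 (chr17:71615965-71616264, plus strand) and the processome scaffold gene Utp20 (chr10:88826765-88827064, minus strand).
Nop2: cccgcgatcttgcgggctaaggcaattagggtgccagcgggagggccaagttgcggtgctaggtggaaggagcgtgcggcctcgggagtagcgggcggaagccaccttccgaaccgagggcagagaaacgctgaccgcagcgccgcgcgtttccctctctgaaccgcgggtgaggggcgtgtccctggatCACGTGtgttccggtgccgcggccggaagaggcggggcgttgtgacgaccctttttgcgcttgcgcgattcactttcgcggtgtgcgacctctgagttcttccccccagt
Tsr1: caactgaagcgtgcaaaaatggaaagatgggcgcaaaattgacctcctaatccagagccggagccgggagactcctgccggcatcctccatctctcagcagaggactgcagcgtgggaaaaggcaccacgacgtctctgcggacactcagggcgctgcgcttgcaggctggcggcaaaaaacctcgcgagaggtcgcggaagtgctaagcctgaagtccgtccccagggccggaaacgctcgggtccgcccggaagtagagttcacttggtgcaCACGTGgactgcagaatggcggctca
Wdr43: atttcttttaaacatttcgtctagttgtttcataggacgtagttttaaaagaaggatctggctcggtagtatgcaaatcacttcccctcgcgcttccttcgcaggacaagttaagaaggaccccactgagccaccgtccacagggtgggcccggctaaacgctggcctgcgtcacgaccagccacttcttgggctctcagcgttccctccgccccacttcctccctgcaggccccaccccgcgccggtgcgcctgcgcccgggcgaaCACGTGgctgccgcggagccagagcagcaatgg
Utp20: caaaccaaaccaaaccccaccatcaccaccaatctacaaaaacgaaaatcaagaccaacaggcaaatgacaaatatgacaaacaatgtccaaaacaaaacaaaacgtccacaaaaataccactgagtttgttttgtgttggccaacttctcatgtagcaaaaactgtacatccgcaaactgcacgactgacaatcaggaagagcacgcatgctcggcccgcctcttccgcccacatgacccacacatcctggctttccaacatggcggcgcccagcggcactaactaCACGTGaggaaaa
The motif starts 60 bases before the annotated start in Nop2, and at bases 25, 18 and 38 of the transcribed part in Tsr1, Wdr43 and Utp20.

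The small subunit was represented by 27 genes, those of the processome and 3 factors of late precursors. Among these 27, 26 passed the threshold and 25 had separate groups. Over all genes tested, 23.1% rose and 28.0% had separate groups with cadmium higher. The median log2 fold change of the 27 genes was 0.43. The 3 factors of late precursors had a median of 0.73 but were not alike. Rrp12, which accompanies small subunit precursors out of the nucleus, was at 12.4, 11.5 and 8.92 CPM in control replicates 1 to 3. In the cadmium replicates it was at 19.8, 23.5 and 21.4 CPM, a log2 fold change of 0.98 ± 0.11 (SE, n = 3). All cadmium libraries were well above all controls, though Rrp12 had the lowest level per length of the 49 genes (1.41 ± 0.245 FPKM in control, SD, n = 3). Tsr1, a GTPase-like protein that blocks premature joining of the subunits, was at 24.8, 24.4 and 22.8 CPM in control and at 37.6, 43.5 and 38.7 CPM in cadmium libraries. Its groups were far apart relative to their spread, with a log2 fold change of 0.73 ± 0.07. Nob1, the endonuclease that makes the final cut of the small subunit rRNA, had the smallest difference of these late factors, from 31.9 to 43.0 CPM on average (0.43 ± 0.07).

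UTP-A, the complex that binds the emerging precursor first, had the narrowest range of the small subunit groups with more than 3 genes. Its 5 genes lay between 0.39 ± 0.06 for Utp15 and 0.62 ± 0.06 for Wdr43 (SE, n = 3). All 5 had separate groups, where 28.0% of all genes tested did so with cadmium higher. Wdr43 was at 29.9, 31.4 and 27.6 CPM in control and at 42.7, 47.6 and 46.4 CPM in cadmium libraries. Mean levels per length in control ran from 4.04 FPKM for Heatr1, its large repeat protein, to 9.20 FPKM for Wdr75. The 6 genes of UTP-B, which joins next and tethers U3, spread more widely. Pwp2 was at 17.2, 15.9 and 17.3 CPM in control and at 22.9, 27.03 and 25.3 CPM in cadmium libraries (0.58 ± 0.08). Utp6 had the smallest difference in that complex, with 63.4, 63.0 and 58.1 CPM against 69.6, 72.5 and 67.9 CPM (0.19 ± 0.05). Its groups were separate by a small margin. Tbl3 had the highest level per length in UTP-B (22.9 ± 0.722 FPKM in control) and a log2 fold change of 0.34 ± 0.05.

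Among the proteins around the U3 RNA, Rrp9 stood apart from the MPP10 complex. Rrp9, the core protein that only the U3 particle carries, was at 19.9, 17.9 and 14.3 CPM in control and at 26.8, 33.1 and 30.7 CPM in cadmium libraries (0.80 ± 0.11, SE, n = 3). The control libraries were themselves unequal, control replicate 3 being the lowest. The MPP10 complex, which helps U3 pair with the precursor, had log2 fold changes of 0.26 ± 0.06 for Imp3, 0.22 ± 0.07 for Mphosph10 and 0.18 ± 0.07 for Imp4. Imp4 was at 28.5, 29.9 and 31.3 CPM in control and at 31.2, 36.2 and 34.5 CPM in cadmium libraries, so its groups overlapped. Leaving out a library left Imp4 short of the edgeR threshold in 4 of 6 cases, with adjusted p = 0.12 when control replicate 1 was dropped, 0.077 for control replicate 2, 0.16 for cadmium replicate 2 and 0.11 for cadmium replicate 3, where all its alternatives spanned 0.011 to 0.16. Mphosph10 missed it when control replicate 3 (adjusted p = 0.051), cadmium replicate 1 (0.066) or cadmium replicate 3 (0.053) was dropped, and all its alternatives spanned 0.0068 to 0.066. The ratio of Rrp9 to Imp4 counts was 0.698, 0.598 and 0.456 in control and 0.857, 0.914 and 0.892 in cadmium libraries, with no overlap. This pair was picked as the highest and lowest fold change of these proteins, so a higher ratio in cadmium follows from the choice.

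The remaining 9 processome genes had a median of 0.38. Utp20, a very large repeat protein of the particle, was the highest at 39.0, 37.6 and 31.6 CPM in control and 53.7, 57.4 and 53.5 CPM in cadmium libraries (0.60 ± 0.07, SE, n = 3). Dcaf13, a WD-repeat protein, had the highest level per length (22.9 ± 1.33 FPKM in control) and a log2 fold change of 0.31 ± 0.06. Wdr46 (0.55 ± 0.06) and Nat10 (0.47 ± 0.07), the acetyltransferase that modifies cytidines of the small subunit rRNA, lay between these. Noc4l, which works with Nop14 in the particle, was the only small subunit factor that missed the threshold. Its 32.1, 34.8 and 32.9 CPM in control and 34.5, 39.5 and 33.6 CPM in cadmium libraries overlapped (0.11 ± 0.07, edgeR adjusted p = 0.21, 0.13 to 0.71 over its alternatives). Its partner Nop14 was at 0.34 ± 0.07.

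**Figure D2:**
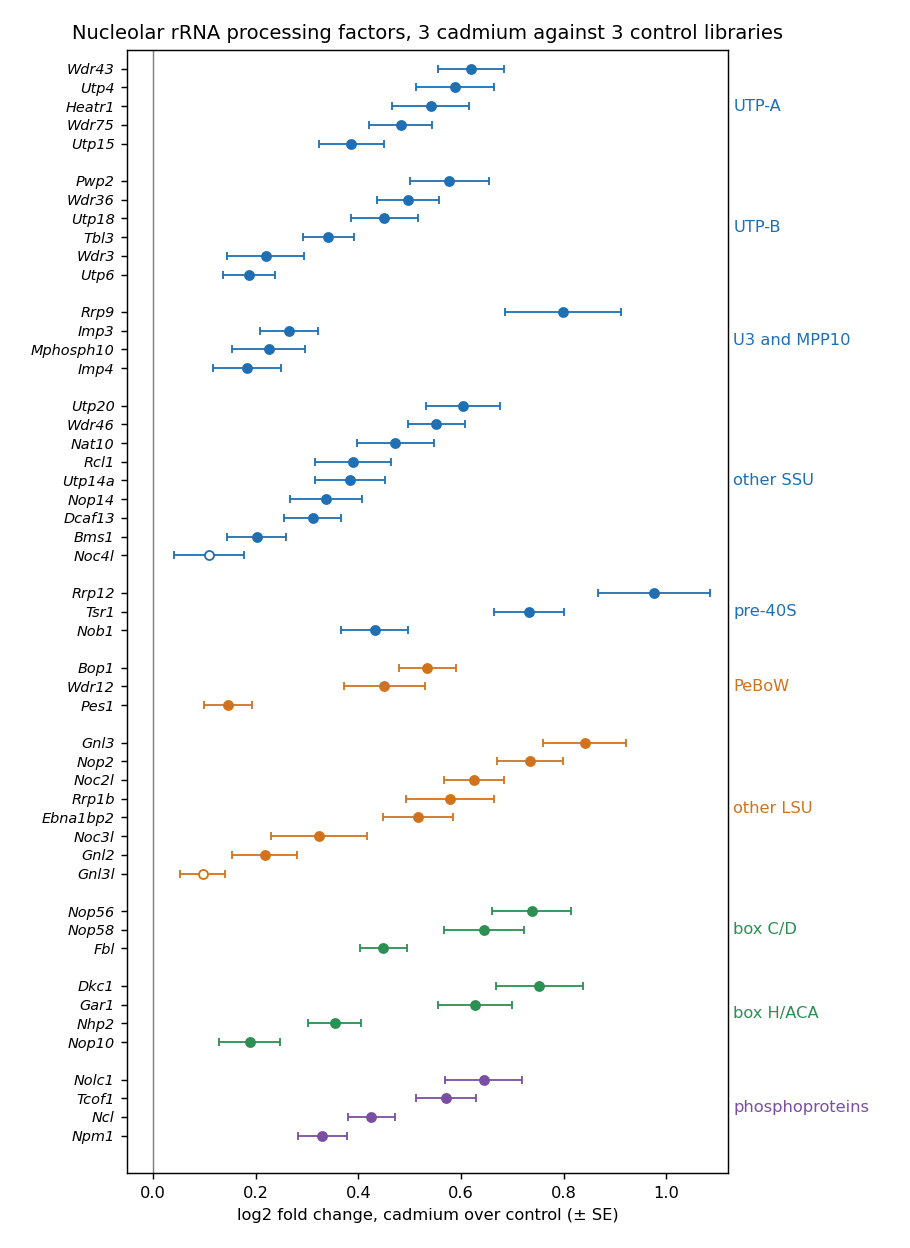
Log2 fold change of cadmium over control (horizontal axis, bars ± SE of the edgeR fit, 3 libraries a group) for each of the 49 genes, grouped and coloured by complex. Filled points passed the adjusted p threshold and the 2 open points, Noc4l and Gnl3l, did not, and all 49 lie to the right of 0.

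The large subunit was represented by 11 genes, of which 10 passed the threshold and all 11 had separate groups. Over all genes tested, 23.1% rose and 28.0% had separate groups with cadmium higher. The median of the 11 genes was 0.52, with a range from 0.10 to 0.84. Gnl3, nucleostemin, a nucleolar GTP-binding protein known for its abundance in stem cells, had the highest value. It was at 26.0, 24.96 and 20.7 CPM in control and at 41.1, 45.9 and 41.2 CPM in cadmium libraries, a log2 fold change of 0.84 ± 0.08 (SE, n = 3). Its paralog Gnl3l was at 78.4, 75.3 and 77.1 CPM in control and at 82.5, 82.1 and 82.3 CPM in cadmium libraries. This is separate but small (0.10 ± 0.04, edgeR adjusted p = 0.084, 0.079 to 0.22 over its alternatives), and Gnl3l was the only large subunit factor that missed the threshold. The ratio of Gnl3 to Gnl3l counts was therefore 0.331, 0.332 and 0.268 in control and 0.499, 0.560 and 0.501 in cadmium libraries, with no overlap.

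PeBoW, the trimer of Pes1, Bop1 and Wdr12 needed to mature the large subunit rRNAs, was split. Bop1 was at 63.7, 64.0 and 57.9 CPM in control and at 84.3, 93.7 and 90.7 CPM in cadmium libraries (0.53 ± 0.06, SE, n = 3). Wdr12 had a like difference, from 27.7, 24.1 and 21.8 CPM to 32.3, 34.8 and 33.4 CPM (0.45 ± 0.08). Pes1, the most abundant of these partners per length (34.9 ± 0.446 FPKM in control), was at 101, 99.4 and 104 CPM in control and 109, 119 and 109 CPM in cadmium libraries. Its groups were separate but close (0.15 ± 0.05), and Pes1 missed the edgeR threshold when control replicate 2 (adjusted p = 0.068) or cadmium replicate 2 (0.10) was dropped, with 0.0041 to 0.10 over all its alternatives. The ratio of Bop1 to Pes1 counts was 0.631, 0.644 and 0.559 in control and 0.777, 0.790 and 0.830 in cadmium libraries, without overlap, while the ratio of Bop1 to Wdr12 counts overlapped between groups (2.54 ± 0.204 and 2.67 ± 0.0555, SD, n = 3). Of the other large subunit genes, Nop2, which methylates large subunit rRNA, was at 0.73 ± 0.06. Noc2l, a scaffold protein of large subunit precursors, had the highest level per length in its group (20.4 ± 1.53 FPKM in control) and was at 80.4, 81.4 and 72.1 CPM against 113, 129 and 119 CPM (0.63 ± 0.06).

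All 7 snoRNP proteins passed the threshold with a higher level, where 23.1% of all genes tested rose. Their median log2 fold change was 0.63. In the box C/D particle, the scaffold genes Nop56 and Nop58 had larger differences than the methyltransferase gene Fbl, fibrillarin. Nop56 was at 58.9, 59.5 and 47.4 CPM in control and at 90.5, 96.9 and 89.0 CPM in cadmium libraries (0.74 ± 0.08, SE, n = 3). Nop58 was at 37.4, 38.9 and 31.1 CPM and at 52.8, 60.0 and 55.1 CPM (0.64 ± 0.08). Both had control replicate 3 as their lowest library. Fbl was at 109.5, 110.4 and 105 CPM in control and at 141, 155 and 149 CPM in cadmium libraries (0.45 ± 0.05). Per length it was far above both partners in control (73.0 FPKM, with Nop56 at 9.55 and Nop58 at 16.4). The lengths used were 1488 bases for Fbl, 5807 for Nop56 and 2184 for Nop58, so the gap to Nop56 was smaller in CPM. The ratio of Nop56 to Fbl counts was 0.538, 0.538 and 0.451 in control and 0.643, 0.627 and 0.599 in cadmium libraries, without overlap.

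The box H/ACA proteins showed the same kind of inequality. Dkc1, dyskerin, the pseudouridine synthase, was at 28.5, 28.8 and 22.1 CPM in control and at 44.9, 45.2 and 43.7 CPM in cadmium libraries (0.75 ± 0.08, SE, n = 3). Gar1 was at 21.8, 20.8 and 18.9 CPM and at 29.6, 33.1 and 32.3 CPM (0.63 ± 0.07). The cadmium values of both genes were clear of the controls. Nhp2, a small RNA-binding core protein, was at 80.2, 88.7 and 86.5 CPM in control and 103, 114 and 109 CPM in cadmium libraries (0.35 ± 0.05). Nop10, the smallest of these core proteins, was at 56.2, 63.7 and 59.0 CPM and 63.2, 69.7 and 70.9 CPM (0.19 ± 0.06). The Nop10 groups overlapped, cadmium replicate 1 lying below control replicate 2. Nop10 missed the edgeR threshold when control replicate 1 (adjusted p = 0.075), cadmium replicate 2 (0.068) or cadmium replicate 3 (0.089) was dropped, and all its alternatives spanned 0.00088 to 0.089. The genes with the smaller differences had the higher levels per length, Nhp2 and Nop10 being at 84.7 and 81.0 FPKM in control against 8.91 FPKM for Dkc1 and 15.8 FPKM for Gar1. The ratio of Dkc1 to Nop10 counts was 0.508, 0.452 and 0.375 in control and 0.711, 0.649 and 0.616 in cadmium libraries, whereas that of Dkc1 to Gar1 overlapped (1.29 ± 0.107 and 1.41 ± 0.0906, SD, n = 3). All pairs with a ratio, in this and the other complexes, were picked after their values were seen and have no test. Those without overlap set the highest fold change of a group over the lowest. Their higher ratio in cadmium follows from that choice.

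**Figure D3:**
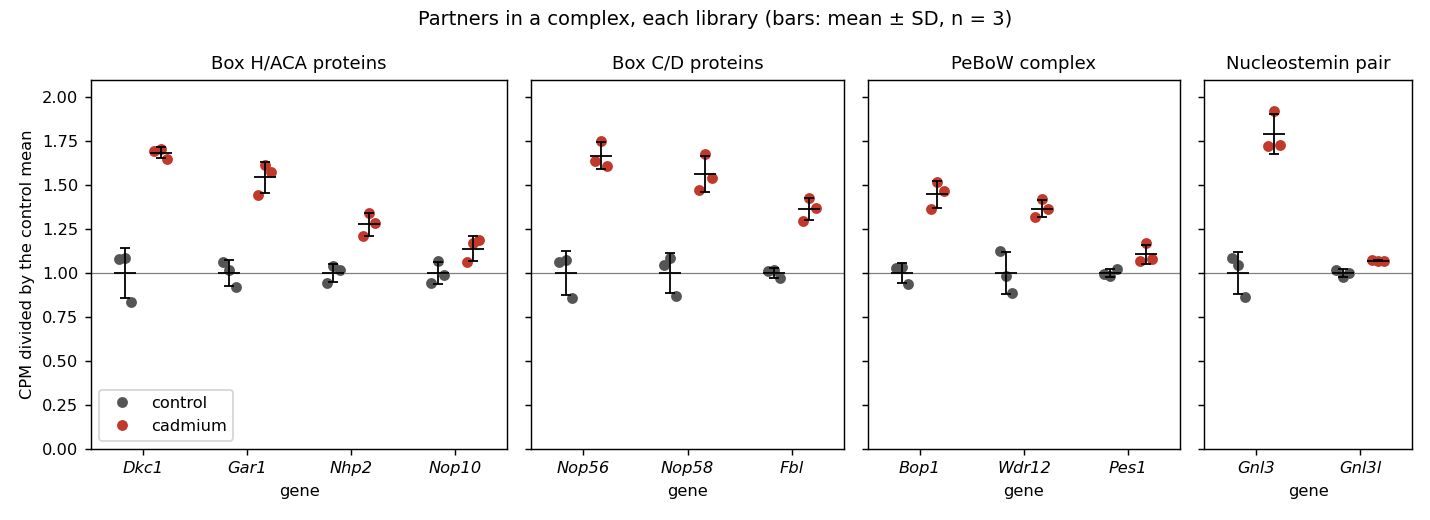
CPM of each gene divided by its mean over the 3 control libraries (vertical axis, starting at 0) for the box H/ACA proteins, the box C/D proteins, the PeBoW complex and the pair Gnl3 and Gnl3l. Grey points are control and red points cadmium libraries, with mean ± SD bars (n = 3), and the red points of Nop10, Pes1 and Gnl3l stay close to 1 while those of their partners are higher.

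The 4 nucleolar phosphoproteins all passed the threshold with separate groups. Over all genes tested, 23.1% rose and 28.0% had separate groups with cadmium higher. Ncl, nucleolin, which binds precursor rRNA and rDNA chromatin, was at 482, 490.2 and 433 CPM in control and 612, 642 and 632 CPM in cadmium libraries (0.43 ± 0.05, SE, n = 3). Npm1, nucleophosmin, which builds the granular outer layer of the nucleolus, had the highest level per length of all 49 genes (217 ± 16.2 FPKM in control and 271 ± 8.82 FPKM in cadmium, SD, n = 3) and the smallest log2 fold change of these proteins, 0.33 ± 0.05. Nolc1, a chaperone of snoRNPs that shuttles between the nucleolus and Cajal bodies, was at 82.5, 90.1 and 73.5 CPM and at 117, 137 and 131 CPM (0.64 ± 0.07). Tcof1, treacle, which recruits RNA polymerase I, was at 36.5, 40.4 and 35.4 CPM and at 54.0, 56.3 and 56.4 CPM (0.57 ± 0.06). Over all 49 genes, a higher control FPKM went weakly with a smaller log2 fold change (Pearson r = -0.34, Spearman rho = -0.27, n = 49 genes that share the same 6 libraries, given as a description).

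In the median, small subunit factors differed less between the groups than large subunit and snoRNP factors together, 0.43 over 27 genes against 0.53 over 18. The difference of these medians was -0.09. Each gene was then centred on its own mean log2 CPM, and the small subunit median minus the other in single libraries was 0.04, 0.04 and 0.14 in control replicates 1 to 3 and -0.02, -0.07 and -0.05 in the cadmium replicates. The groups did not overlap, control replicate 3 lay farthest out, and without it the difference of medians was -0.08. With each gene centred over both groups, the opposite signs restate the difference of medians and add no separate support. The late small subunit factors had a higher median than either class, 0.73, and without Rrp12, Nob1 and Tsr1 the difference was -0.14. With means in place of medians it was -0.05. Since both classes were chosen with these values known, no test is given.

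**Figure D4:**
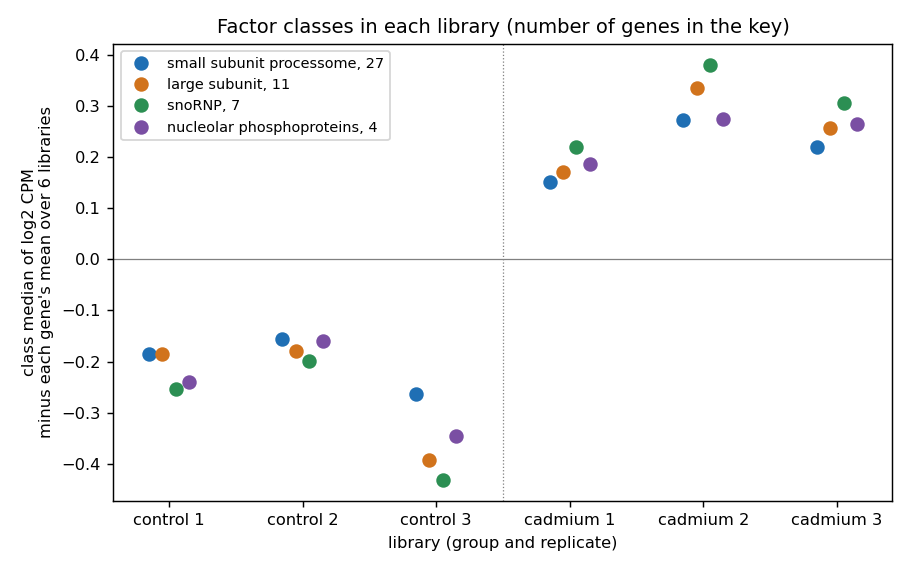
Median of each class of factors in each library (vertical axis, log2 CPM centred on the mean of each gene over the 6 libraries), with the number of genes in the key. The class keyed as small subunit processome includes the late factors Rrp12, Nob1 and Tsr1. The classes lie together below 0 in every control and above 0 in every cadmium library, and the snoRNP and large subunit points of control replicate 3 are the lowest.

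Genes of ribosome production outside the 49 were taken from lists drawn up from knowledge of the pathway. Of 48 other large subunit factors, 42 rose (87.5%) and 0 fell, with a median log2 fold change of 0.37. Ppan, a factor of large subunit precursors, had the highest value among them, from 16.7 ± 1.20 to 29.1 ± 2.92 CPM (SD, n = 3; 0.80 ± 0.08, SE). Rrp1, the paralog of Rrp1b, had the lowest among those that rose (0.11 ± 0.04). Of 34 other small subunit factors, 17 rose and 0 fell, with a median of 0.17. Bysl, which works on late small subunit precursors, went up from 40.5 ± 2.47 to 61.9 ± 4.06 CPM (0.61 ± 0.06), and Ddx49, a helicase, rose least (0.16 ± 0.06). The small subunit genes outside the 49 thus passed the threshold in 17 of 34 cases, where 26 of the 27 chosen ones did, beside 23.1% of all genes that rose.

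The medians of the supporting machinery lay between those of these lists, and its counts are to be read beside the 23.1% of all genes tested that rose and the 22.4% that fell. Of 11 snoRNP assembly factors 7 rose and 0 fell (median 0.33), from Naf1 at 0.27 ± 0.07 to Shq1 at 0.55 ± 0.10 (SE, n = 3), both of which help assemble H/ACA particles. The RNA exosome trims the ends of rRNA precursors. In the list of exosome and cofactor genes, which also holds the exoribonuclease gene Xrn2, 9 of 14 tested rose and 0 fell (median 0.24). Exosc2, a cap subunit, rose from 19.5 ± 1.42 to 30.4 ± 2.93 CPM (0.64 ± 0.08), and the nuclear exonuclease Exosc10 by 0.19 ± 0.05. Proteins of RNase MRP and RNase P, which cut rRNA and tRNA precursors, rose in 6 of 9 cases and fell in 0 (median 0.35, but 0.22 under a filter of 5 CPM, and 0.21 on log2(FPKM + 1) or 0.19 there with no filter). The highest of these, Rpp25, was barely detected with means of 0.524 and 1.32 CPM (log2 fold change 1.32 ± 0.33), and Pop7 was the lowest that rose (0.23 ± 0.08).

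**Figure D5:**
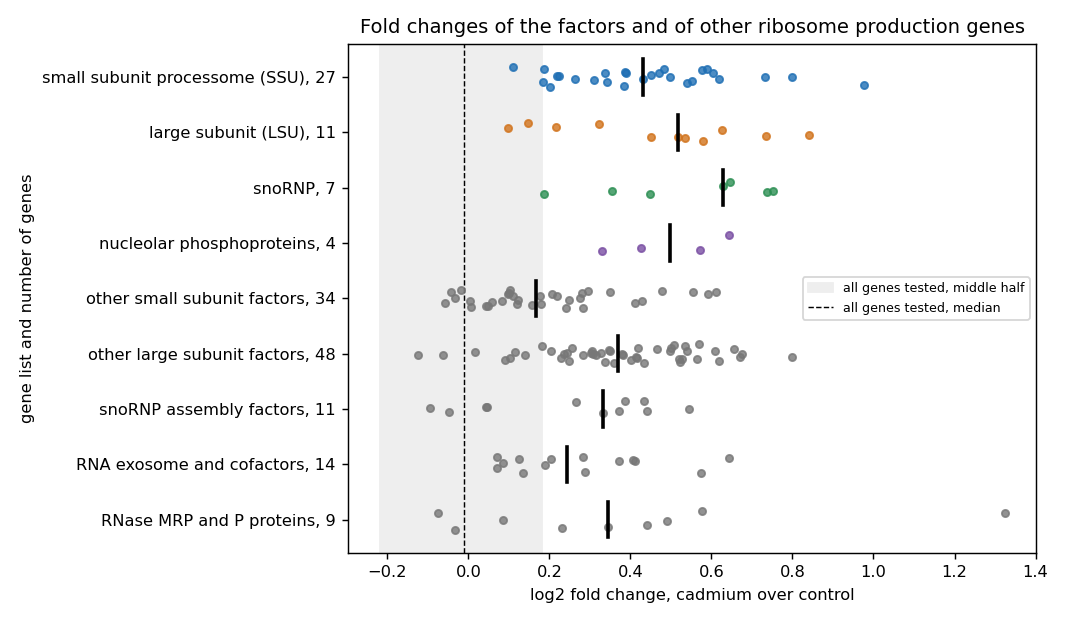
Log2 fold changes of cadmium over control (horizontal axis) of single genes in the 4 classes of the 49 factors (coloured) and in 5 lists of other ribosome production genes (grey), with the number tested. The class labelled small subunit processome includes the late factors Rrp12, Nob1 and Tsr1. Black bars are list medians, the shaded band runs from the lower to the upper quartile of all 14369 genes and the dashed line is their median of -0.01, and the other small subunit factors have the lowest list median, 0.17.

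Several of the 49 genes also have snoRNA genes within their bounds, and whether these lie in introns was not checked. In the GENCODE M21 annotation, 21 snoRNA genes lie inside 7 of the 49 genes on the same strand, in Nop56, Nop58, Gnl3, Wdr43, Tsr1, Dkc1 and Ncl. None of these snoRNAs was analysed here. The 7 host genes had a median log2 fold change of 0.73 and the 42 others 0.44. In the gene terms deposited with the counts, 43 of the 49 genes carry nucleolus, which 719 of the 14369 genes tested carry, and 27 carry small-subunit processome. In GENCODE M21, exons of 17 of the 49 genes overlap those of a counted gene on the other strand, such as Idh3b beside Nop56, so some reads could belong to the neighbour if strand was ignored. Of the 32 genes without such overlap 30 passed the threshold with a higher level, where 23.1% of all genes tested rose. The median of the 32 was 0.44.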

How the data were processed

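RNA was sequenced from 3 control and 3 cadmium cultures. The authors deposited raw counts per gene and FPKM values per gene and library. Per the submitters' processing notes, the build was GRCm39 and the tools, listed with no roles, were HISAT2 2.1.0 and HTSeq 0.11.2, with DESeq2 1.22.2 and, for reads, fastp 0.20.1. The strand setting and the gene annotation are not given in the sources used here. FPKM of the 2 tables equalled counts divided by library total and 1 length per gene, to within 3.7e-10 over 16261 genes. Levels per length therefore depend on that length.

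The main test was the robust quasi-likelihood test of edgeR 4.0.16 (R 4.3.3) on the counts as deposited, with TMM scaling and group as sole term. The filterByExpr rule (minimum count 10, minimum total 15) left 14369 of 25241 genes. P-values are two-sided and adjusted over all genes tested, with a threshold of 0.05. The SE was derived from the fold change and its F statistic. CPM were scaled by TMM. The code was tested on simulated data. Alternatives used DESeq2 1.42.0, limma 3.58.1 on log2(FPKM + 0.1) or log2(FPKM + 1), other scalings and filters, a replicate block, and each library left out.

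The 49 genes and all lists were chosen with earlier results of these data known. Genes named are, in each complex, those with the highest and lowest fold change and the highest control FPKM and those that missed the threshold. Also named are all snoRNP proteins among the 49 and, in other lists, the highest and lowest that passed. Any other gene named, such as Wdr46, Nat10, Nop14, Nop2 or Tsr1, was chosen after their values were seen. Promoters are from RefSeq (GRCm38.p6). Gene overlaps and snoRNA positions are from GENCODE M21 (GRCm38).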

Additional observations from a re-analysis of the deposited data

How the results depend on the processing

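All 49 genes kept a higher level in cadmium cultures under each of the 15 alternatives, and the number past the threshold was 47 with DESeq2, both other scalings, either other filter on counts and the replicate block, 45 on log2(FPKM + 0.1) or log2(FPKM + 1), 38 on log2(FPKM + 1) with no filter, and 41 to 46 with 1 library left out. Their median was 0.41 to 0.50. Of all genes tested, 22.5% rose with DESeq2, 22.01% under upper quartile scaling and 23.4% under the other alternative scaling. This share was 16.6% with no count filter, 26% with at least 5 CPM in 3 libraries and 23.1% with the replicate block. It was 20.9% on log2(FPKM + 0.1), 20.8% on log2(FPKM + 1) with the filter, and 18.6% to 21.8% with 1 library left out. The calls lost were those of Wdr3, Imp4, Mphosph10, Nop10, Pes1, Noc3l, Gnl2, Bms1 and Utp6, all with a log2 fold change of 0.32 or less, in 31 of 735 recomputed values. Dropping control replicate 1 (edgeR adjusted p = 0.083), control replicate 3 (0.054), cadmium replicate 2 (0.061) or cadmium replicate 3 (0.15) cost Wdr3 its call, and dropping cadmium replicate 2 cost Noc3l (0.066) and Gnl2 (0.056) theirs. Their ranges over all alternatives were 0.0065 to 0.15, 0.00032 to 0.083 and 0.0013 to 0.069. The subunit difference stayed below 0, from -0.14 to -0.05.

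On log2(FPKM + 1) with no filter, which tests more genes, 11.01% of all genes rose in place of 23.1%. Among other large subunit factors 1 fell in place of 0 under upper quartile scaling or the 5 CPM filter, and 0 to 1 with 1 library left out. The median of the RNase MRP and P proteins was 0.31 with no count filter, 0.22 with at least 5 CPM in 3 libraries, 0.30 on log2(FPKM + 0.1), and on log2(FPKM + 1) 0.21, or 0.19 with no filter. It was 0.27 to 0.40 with 1 library left out, and that of the exosome and cofactor genes 0.21 to 0.26. The cause of these shifts was not tested.

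Replicate numbers are shared by the groups, and the labels do not say whether samples with the same number share an origin. Over all genes tested such samples did not deviate together (correlations of 0.02, 0.05 and -0.01). These values cannot show whether the cultures were paired, and the main test did not pair them. With the replicate block 47 of the 49 genes passed, their median was 0.46, and 3317 genes rose and 3192 fell in all. Depth was 367 counts or more for each of the 49 genes in each library.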
